A study of Mus musculus with 6 samples.

Results

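The collagen chain genes encode the α chains that wind in threes into collagen molecules, the main structural proteins of connective tissue. On the array used here, 82 probe sets of 45037 named a single gene whose symbol has the form Col, a type number, the letter a and a chain number, and they covered 42 collagen genes. They were grouped by the class of collagen: 11 fibrillar genes with 21 probe sets, 9 network genes with 17, 9 FACIT genes with 24, 5 beaded filament (type VI) genes with 7, 4 transmembrane genes with 7, and 4 genes of other classes (types VII, XV, XVIII and XXVI) with 6. A FACIT is a fibril-associated collagen with an interrupted triple helix.

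The cells were primary dermal fibroblasts of B6 mice, derived from skin of 0 to 2 day old animals of both sexes by explant culture, separately for each biological replicate, and used at passage 4. In 3 treated cultures 5-aza-2'-deoxycytidine, an inhibitor of DNA methylation that acts once it is built into DNA, was present at 5 µM for 96 hours, with fresh drug every 24 hours, and the cells then spent 24 hours in medium without it. The 3 control cultures were untreated. All 6 cultures had the same medium with serum, and the arrays measured total RNA of whole cultures, so fewer cells of a type and less RNA per cell cannot be told apart.

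Dermal fibroblasts are the main source of skin collagen. Types I and III form the bulk of the dermal fibrils, type V is built into them and limits their width, and FACIT collagens such as XII and XIV sit on their surface. Type VI makes beaded microfibrils close to cells. Type IV is the sheet-forming collagen of basement membranes, to which type VII anchors the dermis. Collagen chains are hydroxylated and folded in the endoplasmic reticulum. Fibrillar chains then lose propeptides outside the cell and are crosslinked by lysyl oxidases.

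The trimmed means of the deposited signals ranged from 149.2 to 223.9 between arrays and were brought to 193.2 signal units, and every signal below is scaled in this way. A log2 change is treated minus control on the scale of log2(signal + 9.66), and it is called when the adjusted p from limma over all tested probe sets is under 0.05. A probe set was tested if it exceeded the array median, 51.4 to 60.6 signal units, on at least 3 of the 6 arrays, and where a gene had several, the brightest of them on the mean log2 scale stands for the gene and is called representing. The ratio of 3' to 5' control probe sets of Actb, a measure of RNA integrity, was 1.26 ± 0.010 (SD, n = 3) in control and 1.16 ± 0.019 in treated cultures. That of Gapdh went the other way, from 0.739 ± 0.016 to 0.764 ± 0.024, and the part of either in the results was not tested.

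Of the collagen chains bright enough to be tested, more than not were lower after treatment, while the basement membrane chains Col4a1 and Col4a2, the type VIII chain Col8a1, the anchoring fibril chain Col7a1 and the minor fibrillar chain Col5a3 were higher. Of the 42 genes, 30 had a tested probe set. At the representing probe set 18 fell, 5 rose and 7 were not called, where over all 12194 genes tested 21.6% were called lower and 19.5% higher. The median log2 change of the 30 was -0.72, and that of all genes tested was 0.00 to 2 decimals (-0.0032). Counted by probe set, 27 of 46 fell and 8 rose, against 20.3% and 18.4% of the 23388 tested. Of the called genes, 14 that fell and 2 that rose did so by 2-fold or more, and 6.05% and 5.39% of all genes tested passed the same limits.

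These counts do not cover all members. At 22 of the 30 genes the representing probe set lay above the median on all 6 arrays, and 14 of these fell and 5 rose. Col2a1, Col24a1 and Col8a2 lay above it on the 3 control arrays only, so they could pass the filter only where they were high. Without these 3, 15 of 27 genes fell and 5 rose, and the median log2 change was -0.41 in place of -0.72. In 25 of the 30 genes treated and control signals did not overlap, as in 52.5% of all genes tested. Col2a1, Col24a1 and Col8a2 are among these 25, and also among the 14 genes called with a fall of 2-fold or more.

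**Figure D1:**
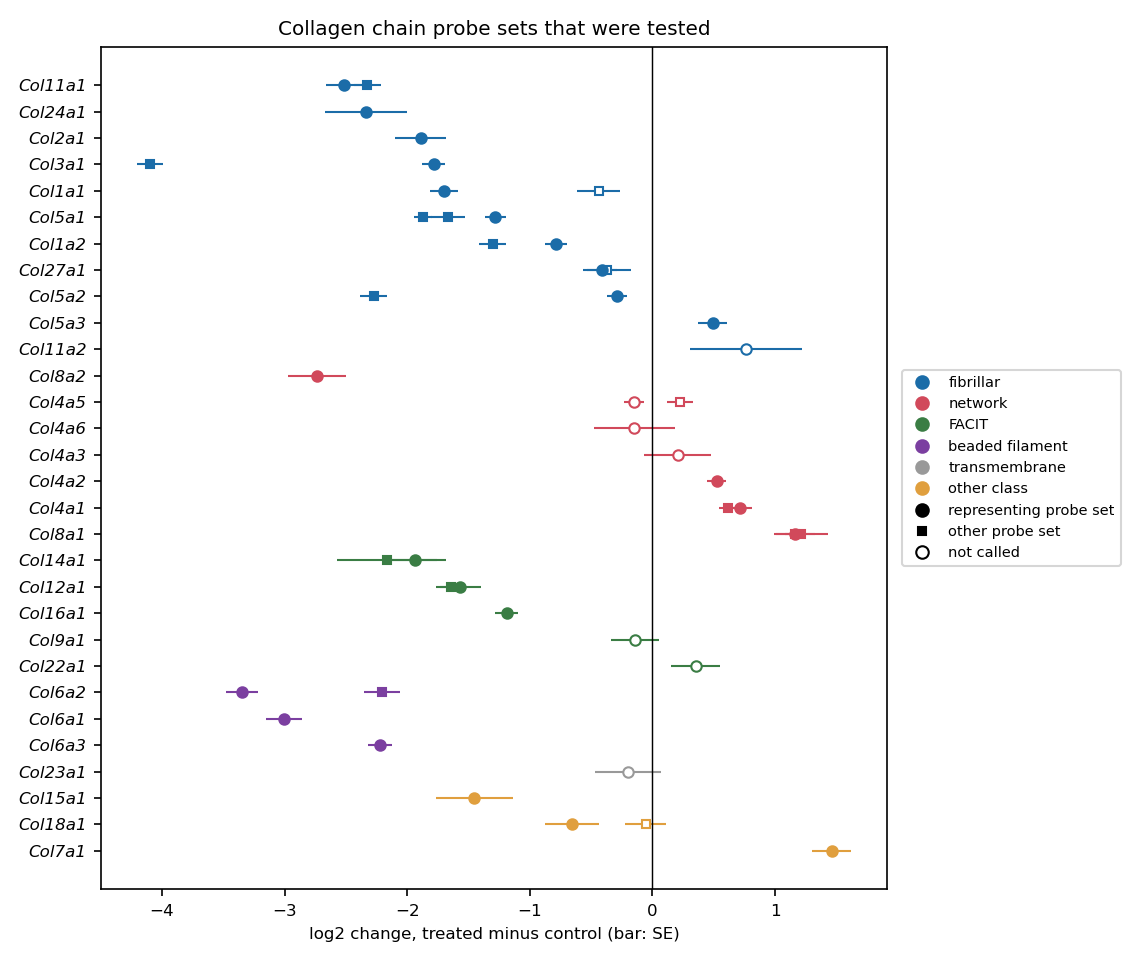
Log2 change (treated minus control, horizontal axis, bar ± SE) of the 46 tested probe sets of 30 collagen genes, coloured by class; circles mark the representing probe set, squares the others, open symbols those not called. Beaded filament chains lie between -3.35 and -2.21, most fibrillar and FACIT chains lie left of 0, and Col4a1, Col4a2, Col8a1, Col5a3 and Col7a1 lie right of it.

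The fibrillar class held the main chains of the dermis, and 9 of its 11 genes fell and 1 rose. All 11 were tested, with a median log2 change of -1.28 at the representing probe sets. This count and median include Col2a1 and Col24a1, which passed the filter through the control arrays only. Col1a1, the α1 chain of type I, had signals of 5736, 6081 and 6986 in the controls and 2036, 1636 and 2102 in the treated cultures. The groups were far apart, with the highest treated value below the lowest control, and the log2 change was -1.70 ± 0.11 (SE; adjusted p = 4.05e-06). Its partner in type I, Col1a2, read 9293, 10518 and 10804 in controls and 6234, 5384 and 6160 after treatment. Every treated value of Col1a2 again lay below every control, and the log2 change was -0.78 ± 0.089 (SE; adjusted p = 0.00012).

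Col3a1, the single chain of type III, which is abundant in young skin, went from 9756, 9926 and 11483 to 3238, 2679.6 and 3104. The change at this probe set was -1.79 ± 0.097 (SE; adjusted p = 1.2e-06). A second probe set of Col3a1, 1427884_at, read 2744, 3048 and 3493 in controls but 178, 157 and 179 in treated cultures. Its log2 change of -4.10 ± 0.11 (adjusted p = 2.13e-08) was the lowest of any collagen probe set and the 38th lowest of the 23388 tested.

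Type V has 3 chains on the array, and they did not move together. For Col5a1 the control signals were 6247, 6451 and 6517 and the treated ones 2645, 2377 and 2894, a log2 change of -1.28 ± 0.085 (SE). All 3 probe sets of Col5a1 fell, the others by -1.67 and -1.87. Col5a2 read 7763, 8304 and 8623 in controls and 7283, 6269.7 and 6637 after treatment at its representing probe set, 1422437_at. This change was small, -0.29 ± 0.082 (adjusted p = 0.0188), and its call ended when control 2, control 3, treated 2 or treated 3 was left out (adjusted p = 0.0619 to 0.065), with no scaling (0.1002), with no filter (0.063) and without the intensity trend (0.0754).

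The other probe set of Col5a2, 1450625_at, gave a different size. It read 3321, 3094 and 4094 in controls and 764, 666 and 711 in treated cultures, a change of -2.27 ± 0.11 (adjusted p = 6.18e-07). Col5a3, a less common chain of type V, was the fibrillar gene that rose. Its signals were 305, 255 and 305 in controls and 419, 361 and 448 in treated cultures, a change of 0.49 ± 0.12 (adjusted p = 0.00983) that was not called without scaling (0.42, adjusted p = 0.281).

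The other fibrillar chains are less typical of dermis. Col11a1, a chain of the thin fibrils of cartilage, had control signals of 1321, 1468 and 1989.5 and treated signals of 299.9, 251 and 252, with no overlap. This was a change of -2.51 ± 0.15 (adjusted p = 1.93e-06), and its second probe set changed by -2.33. Col2a1, the main chain of cartilage fibrils, read 158, 181 and 186 and then 31.3, 37.6 and 53.4. All treated values were below the array median, and the change was -1.89 ± 0.21. Col24a1, a fibrillar chain of developing bone and cornea, went from 95.6, 109.7 and 146 to 13.5, 8.18 and 27.0 (-2.34 ± 0.33), close to the pseudocount.

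Beside these, markers of cartilage cells were low: the summed signal of the 7 listed genes was 386 to 438 on control and 258 to 278 on treated arrays. Of the 3 tested, Sox9, the transcription factor of chondrocytes, fell from 215 ± 27.9 to 70.8 ± 16.1 (SD, n = 3) and the matrix protein Comp from 64.2 ± 6.27 to 32.5 ± 8.57. Comp passed the filter through the control arrays only, and without the filter it was not called (adjusted p = 0.0716). Acan, the main cartilage proteoglycan, was at 51.2 ± 32.2 and 59.8 ± 4.35 without a call. The part of these markers in the change of Col2a1 and Col11a1 was not tested. Among the remaining fibrillar chains, Col27a1 changed by -0.41 ± 0.12 (adjusted p = 0.025). Its call was lost when control 1, control 3, treated 1 or treated 3 was left out (adjusted p = 0.0526 to 0.0852), with no scaling (0.191), with quantile normalization (0.0539) and without the intensity trend (0.0507). Col11a2 was not called (0.76 ± 0.45, adjusted p = 0.222), and control replicate 1, at 14.4, lay far below the other control arrays at 73.7 and 83.1.

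**Figure D2:**
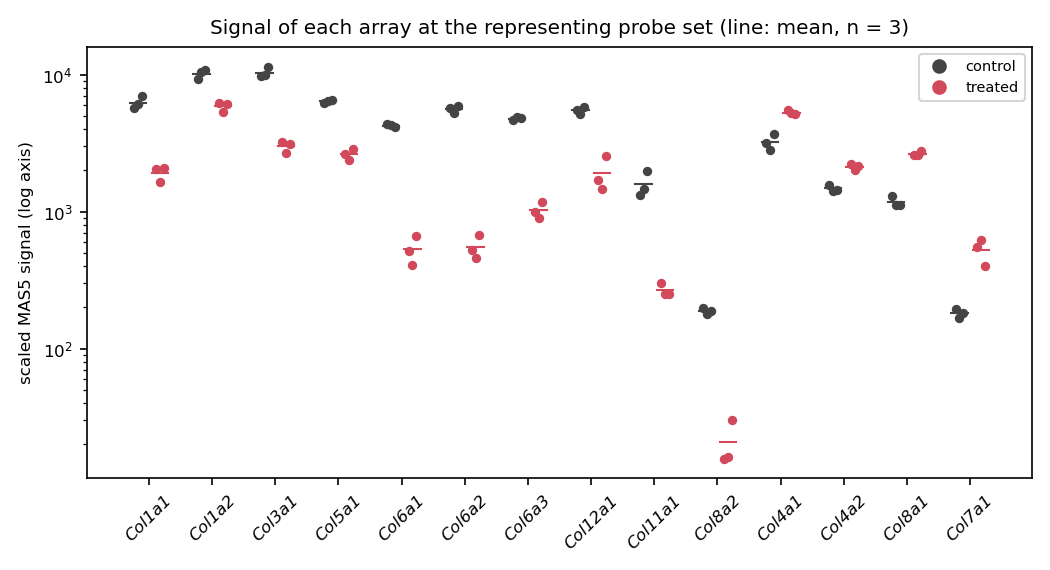
Scaled signal (vertical log axis) of each control and treated array at the representing probe set of 14 collagen genes named in the text; points are arrays and lines group means (n = 3). In each gene shown the 3 treated points lie on one side of the 3 control points, below them from Col1a1 to Col8a2 and above them for Col4a1, Col4a2, Col8a1 and Col7a1.

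The beaded filament collagen, type VI, had the lowest class median, -3.01, and its 3 tested genes all fell. Col6a1 read 4345, 4302 and 4132 in the controls and 514, 411 and 669 in the treated cultures. The controls lay within a narrow range, and the change was -3.01 ± 0.15 (SE; adjusted p = 6.54e-07), the 98th lowest of all probe sets tested. For Col6a2 the values were 5702, 5295 and 5963 against 523, 458 and 680.1, a change of -3.35 ± 0.13 (adjusted p = 1.89e-07) and the 70th lowest. The mean signal was 10.2 times higher in control than in treated cultures. A second probe set of Col6a2, 1426947_x_at, whose name marks probes that may also match other sequences, changed by -2.21 ± 0.14. Col6a3, the long chain that joins the other two in the common type VI molecule, went from 4649, 4909 and 4802 to 1002, 906 and 1171 (-2.22 ± 0.097). In each of the 3 genes treated replicate 3 had the highest of the treated signals and treated replicate 2 the lowest.

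The other type VI genes on the array, Col6a4 and Col6a5, had 3 probe sets between 3.23 and 70.2 signal units that did not pass the filter. Col6a1 and Col6a2 are neighbours on chromosome 10, with no protein-coding gene between them in the RefSeq table of GRCm38.p6. Their promoter windows are shown because both genes fell together while Col4a1 and Col4a2, shown further on, rose together, and because the drug acts on methylation, which in mammals lies mostly at CG dinucleotides. Each window runs from 250 bases before to 50 bases after a RefSeq start, written 5' to 3' on the gene's strand with CG in capitals. Col6a1 lies at chr10:76725995-76726294 and Col6a2 at chr10:76623355-76623654, both on the minus strand of GRCm38.p6.
Col6a1: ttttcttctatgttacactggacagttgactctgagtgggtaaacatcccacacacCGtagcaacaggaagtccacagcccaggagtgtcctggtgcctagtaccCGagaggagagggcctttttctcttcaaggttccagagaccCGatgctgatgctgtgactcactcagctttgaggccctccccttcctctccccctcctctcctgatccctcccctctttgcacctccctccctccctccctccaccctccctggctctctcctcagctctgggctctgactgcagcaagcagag
Col6a2: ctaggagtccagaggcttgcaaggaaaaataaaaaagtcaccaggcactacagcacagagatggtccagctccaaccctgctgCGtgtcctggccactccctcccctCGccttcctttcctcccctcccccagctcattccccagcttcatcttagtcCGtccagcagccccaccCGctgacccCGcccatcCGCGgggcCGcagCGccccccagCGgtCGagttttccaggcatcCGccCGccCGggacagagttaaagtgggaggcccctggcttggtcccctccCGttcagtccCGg
The Col6a1 window held 3 CG and the Col6a2 window 16. A second Col6a2 start listed by RefSeq had 6 in its window, and the Col6a3 window on chromosome 1 had 3. Over all 32851 windows of the table the median was 7, and 31.4% held 3 or fewer.

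The FACIT class fell at 3 of 5 tested genes, and 4 of its 9 genes did not pass the filter. Col12a1, which sits on type I fibrils, read 5528, 5205 and 5842 in controls and 1707, 1475 and 2538 in treated cultures. The treated arrays were spread more widely than the controls, with replicate 3 highest, and the change was -1.57 ± 0.17 (adjusted p = 8.17e-05). Col14a1, its close relative in skin and tendon, went from 332, 364 and 564 to 79.3, 147 and 84.1 (-1.93 ± 0.25). Col16a1, a minor FACIT of skin, gave 684, 695 and 667 against 313, 303 and 267, tight within each group (-1.19 ± 0.096). Col9a1, known from cartilage, changed by -0.14 ± 0.20 (adjusted p = 0.619) and Col22a1, known from tissue junctions, by 0.35 ± 0.20 (adjusted p = 0.202).

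Among network collagens Col4a1 and Col4a2, the widespread type IV chains of basement membranes, rose, and the 3 other tested type IV chains were not called. Col4a1 read 3185, 2843 and 3689 in controls and 5507, 5225 and 5143 in treated cultures, above every control. The change was 0.71 ± 0.098 (adjusted p = 0.000374), and its second probe set changed by 0.62 ± 0.070. Col4a2, which joins it in the widespread type IV molecule, went from 1575, 1422 and 1447 to 2218, 2016 and 2166, a change of 0.52 ± 0.078 (adjusted p = 0.000637). Without scaling the change of Col4a2 was 0.45 and not called (adjusted p = 0.125). The chains with narrower distribution were not called: Col4a3 changed by 0.21 ± 0.27, Col4a5 by -0.15 ± 0.079 and Col4a6 by -0.15 ± 0.33. The second probe set of Col4a5 pointed the other way (0.22 ± 0.11, adjusted p = 0.139). The 3 probe sets of Col4a4 did not pass the filter.

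Col4a1 and Col4a2 lie head to head on chromosome 8, and their RefSeq windows overlap by 78 bases. Col4a1 is at chr8:11312777-11313076 on the minus strand and Col4a2 at chr8:11312555-11312854 on the plus strand of GRCm38.p6, again with CG in capitals.
Col4a1: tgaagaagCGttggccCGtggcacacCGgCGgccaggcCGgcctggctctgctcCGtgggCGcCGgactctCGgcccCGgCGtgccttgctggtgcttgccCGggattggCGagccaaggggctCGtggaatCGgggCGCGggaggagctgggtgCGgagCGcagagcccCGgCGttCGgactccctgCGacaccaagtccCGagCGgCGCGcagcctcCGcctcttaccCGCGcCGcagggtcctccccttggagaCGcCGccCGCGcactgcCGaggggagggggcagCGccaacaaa
Col4a2: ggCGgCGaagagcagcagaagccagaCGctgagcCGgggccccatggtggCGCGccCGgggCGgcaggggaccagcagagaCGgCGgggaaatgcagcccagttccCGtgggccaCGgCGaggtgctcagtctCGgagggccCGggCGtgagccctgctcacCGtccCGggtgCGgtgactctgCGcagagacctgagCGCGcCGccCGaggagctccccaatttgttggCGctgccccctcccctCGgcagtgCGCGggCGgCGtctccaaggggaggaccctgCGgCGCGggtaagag
These windows held 37 and 33 CG, and 5.58% and 8.56% of all windows held as many or more.

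Type VIII, a short-chain network collagen of vessel walls and of the membrane beneath the corneal endothelium, had its chains change in opposite directions. Col8a1 read 1292, 1126 and 1124 in controls and 2598, 2604 and 2763 in treated cultures, 2.25 times higher in mean signal. The change was 1.16 ± 0.082 (adjusted p = 6.21e-06), and both other probe sets rose by nearly the same amount (1.17 and 1.21). Col8a2 read 197, 178 and 188 in controls and 15.7, 16.0 and 30.1 in treated cultures. That was a change of -2.74 ± 0.24 (adjusted p = 2.27e-05), with all treated values near the pseudocount, so its size depends on it. Col10a1, a network chain of growth plate cartilage, was at 4.88 to 7.59 on all arrays and not tested.

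Both type VIII windows are printed since the chains moved apart. Col8a1 is at chr16:57754688-57754987 on the minus strand and Col8a2 at chr4:126286544-126286843 on the plus strand of GRCm38.p6.
Col8a1: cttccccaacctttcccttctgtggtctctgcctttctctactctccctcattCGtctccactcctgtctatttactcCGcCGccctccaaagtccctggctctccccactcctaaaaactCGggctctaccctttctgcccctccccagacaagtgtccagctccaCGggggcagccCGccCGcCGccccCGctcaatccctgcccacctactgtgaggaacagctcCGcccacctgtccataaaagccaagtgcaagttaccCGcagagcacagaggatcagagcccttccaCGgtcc
Col8a2: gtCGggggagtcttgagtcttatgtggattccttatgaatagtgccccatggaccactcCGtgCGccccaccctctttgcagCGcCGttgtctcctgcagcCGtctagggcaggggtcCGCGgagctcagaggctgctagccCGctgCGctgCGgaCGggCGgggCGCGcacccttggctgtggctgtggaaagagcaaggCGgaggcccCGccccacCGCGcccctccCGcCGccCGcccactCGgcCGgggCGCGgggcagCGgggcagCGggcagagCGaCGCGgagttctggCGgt
Here the chain that fell had more CG in its window, 32 against 12, whereas the type IV chains that rose had more than the type VI chains that fell.

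A window was found for 33 of the 42 genes. Col1a1, Col2a1, Col5a2, Col12a1 and Col14a1, which all fell, had no window, while all 5 genes that rose had a window. With the window of most CG where a gene had several, the 5 genes that rose held 12 to 37 CG (median 20), the 13 that fell 0 to 34 (median 13) and the 5 that were tested but not called 1 to 24 (median 11). The ranges overlapped. Col3a1 had 0 CG in its window, as had 5.43% of all windows, and Col5a1, which also fell, had 34. CG counts describe the reference sequence, and methylation was not measured in the values used here.

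**Figure D3:**
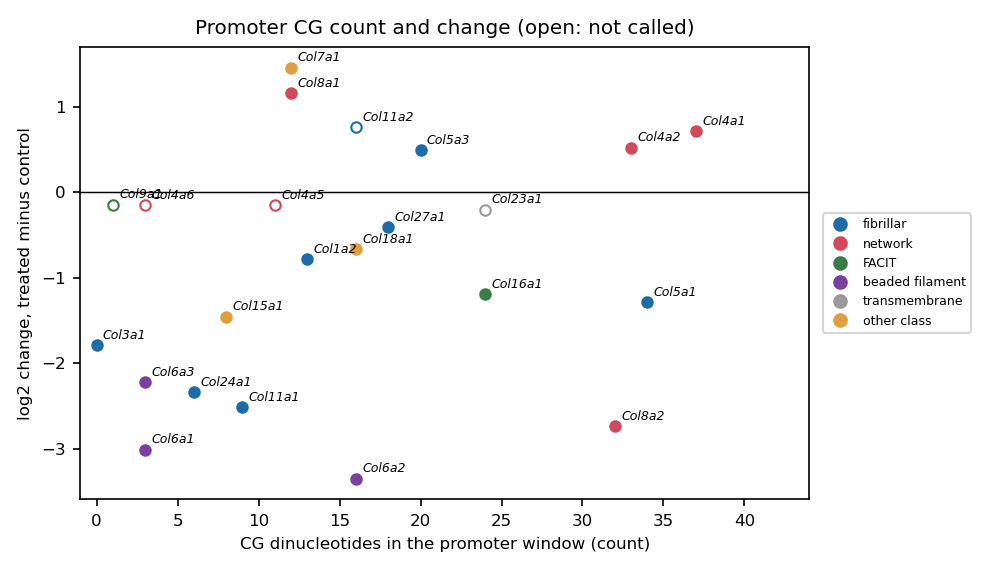
Number of CG dinucleotides in the 300-base RefSeq window (horizontal axis) against log2 change (treated minus control, vertical axis) of tested collagen genes with a window, coloured by class, open where not called. Genes that fell span 0 to 34 CG and genes that rose 12 to 37, so the ranges overlap.

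In the remaining classes the anchoring and basement membrane zone collagens differed. Col7a1, the chain of the anchoring fibrils that hold epidermis to dermis, read 195, 166 and 182 in controls and 552, 617 and 399 in treated cultures. Every treated value was above every control, and the change of 1.46 ± 0.16 (adjusted p = 8.6e-05) was the highest of the representing probe sets. Col15a1, found in basement membrane zones, went from 115, 149 and 271 to 40.5, 51.5 and 78.1 (-1.45 ± 0.31, adjusted p = 0.00507). Its controls were widely spread, with replicate 3 highest. Col15a1 lay above the array median on the 3 control arrays and 1 treated array, so the control arrays alone met the filter. Without the filter it was still called (adjusted p = 0.0133). Col18a1, whose C-terminal fragment is endostatin, had 273, 439 and 291 against 203, 155 and 267, a change of -0.66 ± 0.22 (adjusted p = 0.0389). That call was lost when control 2, control 3, treated 1 or treated 2 was left out (adjusted p = 0.0548 to 0.127), with quantile normalization (0.063), with no filter (0.0759) and without the intensity trend (0.0811), and its second probe set changed by -0.06 ± 0.17.

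With the replicate number as a block the change of Col18a1 was also not called (adjusted p = 0.0536). The transmembrane collagens are cell surface proteins with a triple helical ectodomain, and 1 of 4 was tested. This was Col23a1, at 58.6, 56.5 and 69.8 in controls and 35.2, 69.7 and 56.7 in treated cultures. The groups overlapped, and the change of -0.20 ± 0.27 (adjusted p = 0.605) was not called. Col13a1, Col17a1 and Col25a1 did not pass the filter. Col17a1, the hemidesmosome collagen of basal keratinocytes, stayed between 1.29 and 4.46 on all arrays.

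In all, 36 collagen probe sets were not tested, and they lay between 0.777 and 83.7 signal units. They left 12 genes without a tested probe set: Col4a4, Col6a4, Col6a5, Col9a2, Col9a3, Col10a1, Col13a1, Col17a1, Col19a1, Col20a1, Col25a1 and Col26a1. Without the filter, where 9.8% of all probe sets were called lower and 9.07% higher, 2 of the 36 were called. These were a probe set of Col1a2 beside its tested ones, at 75.3, 59.6 and 42.5 in controls and 15.3, 7.53 and 5.54 in treated cultures (-1.85), and a probe set of the cartilage FACIT chain Col9a3 (0.93), whose signals of 0.777 to 15.8 were close to the bottom of the scale. No detection calls were used here to tell low signals from background.

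Of 14 genes with more than 1 tested probe set, 0 had calls in opposite directions. Their changes lay within 0.5 of each other on the log2 scale in 7 genes and were at least 1 apart in 4: Col3a1 (2.31 apart), Col5a2 (1.98), Col1a1 (1.26) and Col6a2 (1.14). The second probe set of Col1a1, 1455494_at, read 659.8, 533 and 902 in controls and 514, 436 and 559.6 in treated cultures. These overlapped, and the change of -0.44 ± 0.18 was not called (adjusted p = 0.0765), though it passed without control replicate 2 (-0.61, adjusted p = 0.0169) and with the replicate number as a block (adjusted p = 0.00969). The representing probe set had the lesser change of its gene in Col1a2, Col3a1, Col5a1, Col5a2, Col12a1, Col14a1, Col8a1 and Col4a5. It had the greater one in Col1a1, Col6a2, Col11a1, Col18a1, Col27a1 and Col4a1. For Col8a1 the changes were nearly equal, and for Col4a5 they pointed in opposite directions without a call.

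**Figure D4:**
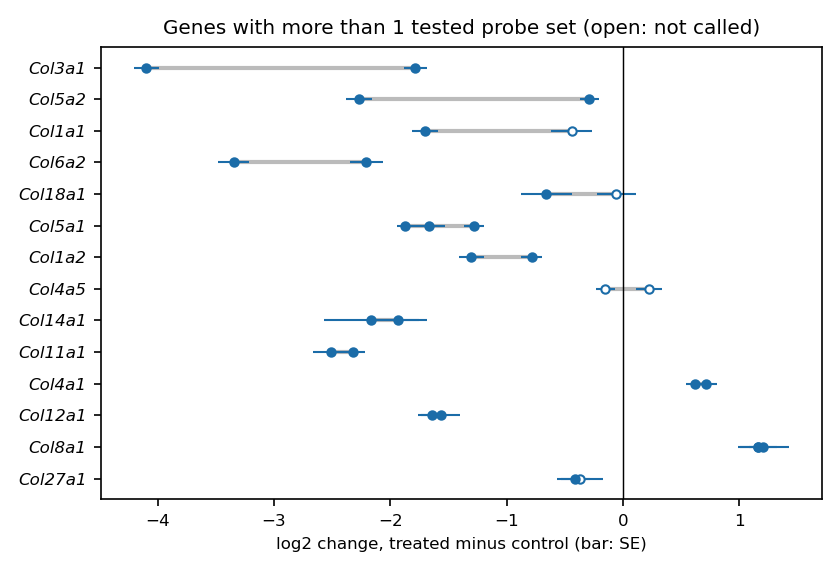
Log2 change (treated minus control, horizontal axis, bar ± SE) of every tested probe set of the 14 collagen genes with more than 1, joined by a grey line and ordered by their spread; open points were not called. The spread is 2.31 for Col3a1 and 1.98 for Col5a2, while the 3 probe sets of Col8a1 nearly coincide.

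Chains that build 1 molecule, or that are close partners, were set against each other as the log2 signal of the first minus that of the second on each array, for 8 pairs. The exact permutation test over the 6 cultures (two-sided) cannot go below p = 0.1, and after adjustment over the 8 pairs the smallest value was 0.16, so 0 pairs passed. For type VIII, Col8a1 minus Col8a2 was 2.66, 2.60 and 2.52 in controls and 6.69, 6.67 and 6.12 in treated cultures (exact p = 0.1). Col8a2 passed the filter through the control arrays only and was near the pseudocount in treated cultures, so the size of this difference, 3.90, is set in part by the pseudocount, with 4.30 at a smaller and 3.09 at a larger one. Col6a1 fell further than Col6a3 by 0.79, with -0.10, -0.19 and -0.22 in controls and -0.95, -1.12 and -0.80 in treated cultures, without overlap (exact p = 0.1).

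For other pairs the answer depended on the probe set. Col1a1 fell further than Col1a2 by 0.92 at the representing probe sets, but over the 4 combinations of tested probe sets the difference ran from -0.92 to 0.86. For Col5a1 and Col5a2 it ran from -1.58 to 0.99 over 6 combinations, and for Col6a1 and Col6a2 from -0.80 to 0.34 over 2. Col4a1 and Col4a2 differed by 0.19 with overlapping groups (exact p = 0.3), and Col1a1 and Col3a1 by 0.08 (exact p = 0.2), where other probe sets of that pair gave up to 3.66. Col12a1 and Col14a1 differed by 0.37 (exact p = 0.5).

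Genes that make, process and bind collagen were counted by list, against the background of 21.6% of genes lower and 19.5% higher given above. Each list gene was counted at its representing probe set alone, and its other probe sets were not compared. In the list of folding and hydroxylation in the endoplasmic reticulum, 9 of 19 tested genes fell and 1 rose, with a median log2 change of -0.27. Among them Fkbp7, a prolyl isomerase, changed by -0.76 ± 0.085 (SE), Crtap, a partner of prolyl 3-hydroxylase, by -0.59 ± 0.082, the prolyl 3-hydroxylase P3h3 by -0.87 ± 0.12 and the lysyl hydroxylase Plod1 by -0.57 ± 0.091. The lysyl hydroxylase Plod2 was the riser (0.56 ± 0.10), named after its value was seen, as are all genes beyond the 4 with the smallest p in a list. The collagen chaperone Serpinh1 was not called (-0.17 ± 0.082, adjusted p = 0.146). Without scaling 4 of the list fell and 0 rose.

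Of 11 tested genes for the secretion of large cargo, 5 fell and 1 rose (median -0.23). The coat subunit Sec24d (-0.59 ± 0.075), the collagen cargo receptor Mia3 (-0.48 ± 0.097) and the coat subunit Sec31a (-0.36 ± 0.090) fell, as did Sec23a (-0.30) and the transcription factor Creb3l1 (-0.38), while the GTPase Sar1b rose (0.53 ± 0.089). Without scaling 1 fell and 0 rose, and 3 fell without treated replicate 2 or without the intensity trend. Procollagen processing went the other way, with 4 of 6 tested genes higher and 1 lower (median 0.58). Of these Pcolce2 passed the filter through the treated arrays only, and without it 3 of 5 rose and the median was 0.49. Tll1, a tolloid-like protease that removes C-propeptides, went from 136 ± 24.2 to 597 ± 78.9 (SD, n = 3), a change of 2.07 ± 0.15 (SE). Pcolce2, an enhancer of that cleavage, went from 34.6 ± 17.4 to 343 ± 83.8 (3.06 ± 0.31).

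Its relative Pcolce moved oppositely, from 9036 ± 729 to 5242 ± 371 (-0.78 ± 0.087). The proprotein convertase Furin (0.68 ± 0.14) and the C-proteinase Bmp1 (0.49 ± 0.10) also rose, and without scaling 2 of the list rose. Of the 4 crosslinking enzymes tested, Loxl1 fell (-0.44 ± 0.093) and Loxl4 rose (0.67 ± 0.23, adjusted p = 0.0442). The call of Loxl4 ended without control 1, control 3, treated 1, treated 2, scaling, the filter or the intensity trend. The main fibroblast enzyme Lox (-0.22 ± 0.090, adjusted p = 0.0808) and Loxl3 (-0.01 ± 0.12) were not called.

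Of 6 tested receptors for collagen, 3 fell and 1 rose (median 0.03). The integrin chain Itgb1 rose from 3663 ± 122 to 6091 ± 454 (0.73 ± 0.078). Itga1, an α chain of a collagen-binding integrin, fell (-0.79 ± 0.19), as did the collagen-binding kinase Ddr2 (-0.44 ± 0.10) and the endocytic receptor Mrc2 (-0.75 ± 0.16). Without control replicate 1 the number that rose was 3, and without treated replicate 3 it was 2. Among proteins that bind collagen fibrils, 8 of 9 tested genes fell and 0 rose. The median of -2.95 is the value of Kera, the keratan sulfate proteoglycan keratocan, which passed the filter through the control arrays only and read 2.59 to 5.30 in treated cultures, under the pseudocount. Without Kera 7 of 8 fell, with a median of -2.73. Fibromodulin, Fmod, went from 1175 ± 347 to 55.3 ± 4.89 (-4.15 ± 0.18), dermatopontin, Dpt, from 3079 ± 437 to 165 ± 89.0 (-4.26 ± 0.30), matrilin 2, Matn2, from 2934 ± 630.4 to 362 ± 107 (-3.00 ± 0.20) and fibulin 1, Fbln1, from 734 ± 78.3 to 153 ± 11.6 (-2.19 ± 0.11).

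**Figure D5:**
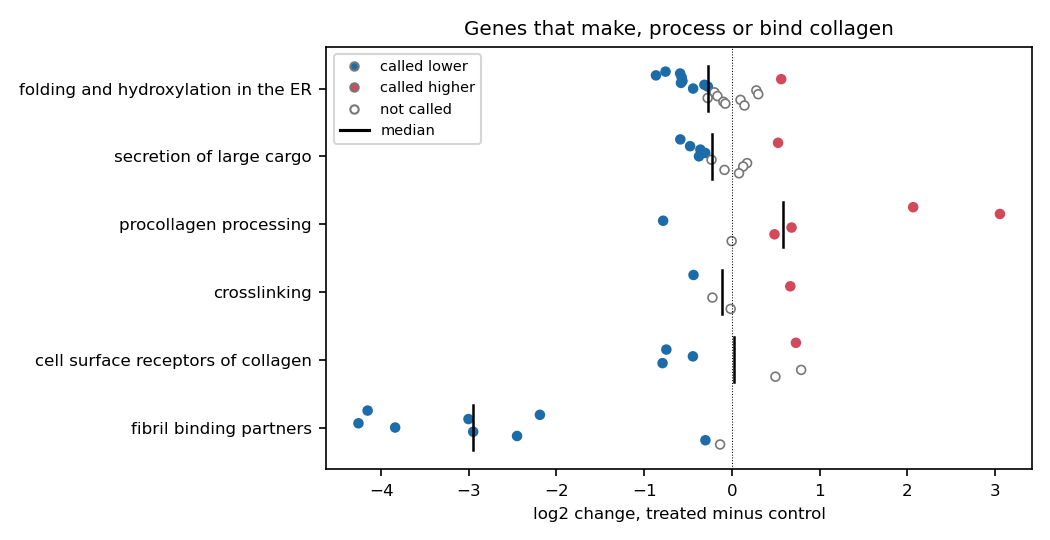
Log2 change (treated minus control, horizontal axis) of every tested gene in 6 lists of genes that fold, secrete, process, crosslink or bind collagen; blue points were called lower, red ones higher, open ones not called, and the black line is the list's median. Fibril binding partners have a median of -2.95 (-2.73 without Kera), procollagen processing genes one of 0.58 (0.49 without Pcolce2), each gene having passed the filter through 1 group only, and the other lists lie between -0.27 and 0.03.

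The labelled cell type was checked against its markers. All 11 listed fibroblast genes were tested, and 8 fell and 2 rose. Of the 11, 3 are collagens described above, and Lum and Dcn are also in the list of fibril binding proteins. Vim, the mesenchymal filament protein, was at 10235 ± 570 in controls and 11246 ± 911 in treated cultures without a call, whereas Pdgfra, the receptor that marks dermal fibroblasts, fell from 3477 ± 324 to 378 ± 119 (-3.21 ± 0.18) and S100a4 rose (0.74 ± 0.15). The summed signal of the list was 64686 to 71998 on control and 39234 to 46394 on treated arrays. Across the other lists, the sums were 347 to 630.4 and 353 to 548 for 8 keratinocyte genes, 317 to 380.1 and 409.9 to 476 for 8 endothelial genes, 530.04 to 595 and 654 to 789.5 for 7 leukocyte genes, and 505 to 616 and 643 to 918 for 8 skeletal muscle genes, in control and treated arrays respectively.

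None of these lists had a gene at 0 on average, and their members differed in level. In control and treated cultures, Krt14 of basal keratinocytes was at 44.2 and 42.6, Pecam1 of endothelium at 7.80 and 15.1 and Ptprc of leukocytes at 27.0 and 41.5. These were below the median of every array. Other members were above it on all 6 arrays. In the keratinocyte list these were Epcam (182 and 145) and Krt10 (70.9 and 70.3), in the endothelial list Kdr (129 and 148). In the leukocyte list they were Csf1r (305 and 383) and Lyz2 (123 and 153). Of 5 tested endothelial genes 3 were called, and each had passed the filter only through the group where it was high: Esam (1.97 ± 0.30) and Cdh5 (0.83 ± 0.29) through the treated and Tek (-0.78 ± 0.25) through the control arrays. Without the filter Esam was called (adjusted p = 0.00193), and Cdh5 (0.0900) and Tek (0.0699) were not. Endothelial cells and keratinocytes are known sources of type IV and type VII collagen, and the part of these cells in the rise of Col4a1, Col4a2 and Col7a1 was not tested. Bone genes summed to 206 to 271 and 181 to 335, and melanocyte and Schwann cell genes to 576 to 745 and 593 to 674. Of the tested genes, 1 of 3 leukocyte and 2 of 3 skeletal muscle genes rose. In the bone list 1 of 2 fell, in the melanocyte and Schwann list 1 of 6, and 0 of 3 keratinocyte genes were called. Over all genes tested, 21.6% were called lower and 19.5% higher. Without the filter 1 leukocyte and 2 muscle genes were still higher, and 0 bone, melanocyte or Schwann genes were called.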

How the data were processed

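Total RNA of 6 cultures, 3 treated and 3 control, was labelled with biotin and measured on 1 Affymetrix array each. The deposited values are MAS5 signal intensities on a linear scale, per the submitters' processing notes. The MAS5 version and target intensity were not stated in the labels or file headers. Here each array was scaled to a common 2% trimmed mean of 193.2, and log2(signal + 9.66) was fitted by limma (version 3.58.1, R version 4.3.3) using lmFit and an eBayes step with an intensity trend, and group was the sole term. The pseudocount is 0.05 of that trimmed mean. Benjamini-Hochberg adjustment of p-values ran over 23388 tested probe sets of 45037, with 64 control probe sets left out. Gene names are those of the platform annotation, where 34945 probe sets name 1 gene, and all 42 collagen symbols matched the RefSeq table of GRCm38.p6. Promoter windows are from RefSeq (GRCm38.p6). The number of arrays limits the precision.

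The collagen members, classes, pairs and gene lists were chosen with earlier results of these data known. The rule for naming gave per-array values for collagen genes called with at least a 2-fold change and for 15 fixed chains, and the 4 tested genes with the smallest p in each pathway list. Col5a3, Col11a2 and Col23a1 were given per array outside this rule, after their values were seen. The marker lists covered fibroblast, keratinocyte, endothelial, leukocyte, skeletal muscle, cartilage, bone, and melanocyte and Schwann cells. Alternatives were no scaling, quantile normalization, no filter, a filter on mean signal, and pseudocounts of 0.01 and 0.2 of the trimmed mean. Others were no intensity trend, a replicate block, other probe sets for a collagen gene, and leaving out each array. The fit was also run on simulated data with independent noise and few changed probe sets. That run does not measure the error rate in these data, where many more were called. Treated and control cultures share replicate numbers, and no label ties a number to a shared animal or explant.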

Additional observations from a re-analysis of the deposited data

How the results depend on the processing

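Over 14 alternative fits the 46 tested collagen probe sets gave 643 log2 changes, of which 24 lost a call, 2 gained one and 6 changed sign, all 6 at probe sets that were not called. On leaving out 1 array, Col4a6 ranged from -0.35 to 0.16 (above 0 without control 1 or treated 1), Col9a1 from -0.30 to 0.054 (above 0 without control 3), Col23a1 from -0.38 to 0.031 (above 0 without treated 1) and the second probe set of Col18a1 from -0.16 to 0.073 (above 0 without control 1 or treated 2). Of 35 called collagen probe sets, 30 kept direction and call in every alternative that tested them, other than no filter. The others were those of Col5a2, Col5a3, Col27a1, Col4a2 and Col18a1 named with the results. Among the 30, Col24a1 was not tested with the filter on mean signal, where 17 collagen genes fell. Leaving out 1 array gave 15 to 17 collagen genes lower and 5 higher, and for all probe sets 7635 to 8061 calls.

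Without scaling 5019 of all probe sets were called, 39.4% of them higher against 47.5% after scaling. In that setting 3 collagen genes rose in place of 5, 0 of them fibrillar. Also without scaling, 4 folding genes fell and 0 rose, 1 secretion gene fell and 0 rose, 2 processing genes rose, and 0 crosslinking genes fell or rose. Of the genes in other classes, 1 in place of 2 fell with quantile normalization, no filter, no intensity trend, the replicate block or the least-changed probe set, and 1 to 2 on leaving out 1 array. Quantile normalization gave 2 crosslinking genes lower and 2 folding genes higher, and no filter gave 0 crosslinking genes higher. Without the intensity trend 3 secretion genes fell, 0 crosslinking genes rose and 2 receptors rose. A filter on mean signal or the larger pseudocount also gave 2 receptors higher. On leaving out 1 array, secretion genes lower ranged from 3 to 5, crosslinking lower from 1 to 2 and higher from 0 to 1, folding higher from 1 to 2 and receptors higher from 1 to 3. The difference between Col8a1 and Col8a2 was 4.30 with the smaller and 3.09 with the larger pseudocount. The cause of these differences was not tested. The pathway counts and the leave-one-out values of the chain pairs were added after seeing the data.

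The correlations of deviations between same-numbered control and treated arrays were 0.186, 0.172 and 0.0720. Those between different numbers were -0.149 to -0.0218, so each array correlated best with its own number. Deviations were taken from group means, so the 2 sets of correlations are not independent. Whether the numbers mark pairs is not stated in the labels, so the main fit had no block. With the replicate block 9541 probe sets were called in all, against 9040 without it. In that setting 17 collagen genes fell and 5 rose, 2 folding genes rose and 3 receptors rose.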
